A study of Mus musculus with 6 samples.

Results

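Elastin and 9 proteins that assemble or decorate elastic fibres were followed in mouse lung by the RNA levels of their genes: Eln, the fibulin genes Fbln1, Fbln2, Fbln5, Efemp1 and Efemp2, the microfibril-associated genes Mfap2, Mfap4 and Mfap5, and Emilin1. They were chosen by name as elastin, fibulins, microfibril-associated proteins and emilin, and all 10 were among the 49568 rows of the deposited table. The samples were 6 libraries of RNA from perfused right lung lobes of C57BL/6 mice killed at 6 weeks of age, 3 libraries from Col6a1-/- mice and 3 from wildtype mice. RNA of 2 animals was combined for each library, so 12 animals gave 6 pools, and values listed by pool below run through replicates 1, 2 and 3 in that order. How the Col6a1 allele was made and the sex of the animals are not stated in the sources used here.

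Elastic fibres have a core of cross-linked elastin on a scaffold of fibrillin microfibrils. Tropoelastin, the soluble product of Eln, is gathered by fibulins, laid on microfibrils and cross-linked by lysyl oxidases. In the lung these fibres run through airway and vessel walls and the rims of the alveoli and give the recoil that empties it. Col6a1 encodes a chain of collagen VI, a microfibrillar collagen found close to basement membranes.

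The libraries held 28055414 to 37904878 reads in genes. Col6a1, the gene named in the genotype, had 10034, 10616 and 9344 normalized counts in the Col6a1-/- libraries, against 19907, 18393 and 22330.5 in the wildtype libraries, so RNA assigned to it was still present in every Col6a1-/- library at 49.5% of the wildtype mean. The pools differed in sex. The male share, read from 4 Y-linked genes relative to Col6a1-/- replicate 2, was 72.5%, 100% and 51.1% in the Col6a1-/- pools, against 0.347%, 3.35% and 51.5% in the wildtype pools. Defining lung genes were present throughout: the 6 alveolar type 2 markers, Sftpc among them, summed to 777720 to 948768 normalized counts in Col6a1-/- and 852925 to 960741 in wildtype libraries.

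No member passed the test between genotypes. The test was limma on log2 values of the normalized counts, two-sided, with p-values adjusted by the Benjamini-Hochberg method across the 16879 tested genes and called under 0.05, and it called 0.0652% of the tested genes. All 10 members were tested. In Col6a1-/- lungs 8 had lower and 2 higher estimates, where 48.3% of all tested genes had lower ones, with a median log2 fold change of -0.08 beside 0.01 over all tested genes. At an unadjusted p under 0.05, 3 of the 10 members (Emilin1, Fbln2 and Eln) had lower estimates, where 10.6% of all tested genes were lower under that p and 20.3% lay under it in either direction. The number of members under that p depended on the fit. It was 0 with a trend on transcript length and GC removed, where 3007 of 16435 genes lay under it. With the male share as a covariate it was 1, where 1306 of 16879 genes did. It was 2 with robust moderation and 1 to 3 with each library left out. For 2 members, 1 lower and 1 higher, no library of one genotype fell within the range of the other, which held for 24.9% of all tested genes. In bulk RNA, fewer cells of a type and less RNA per cell cannot be told apart.

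**Figure D1:**
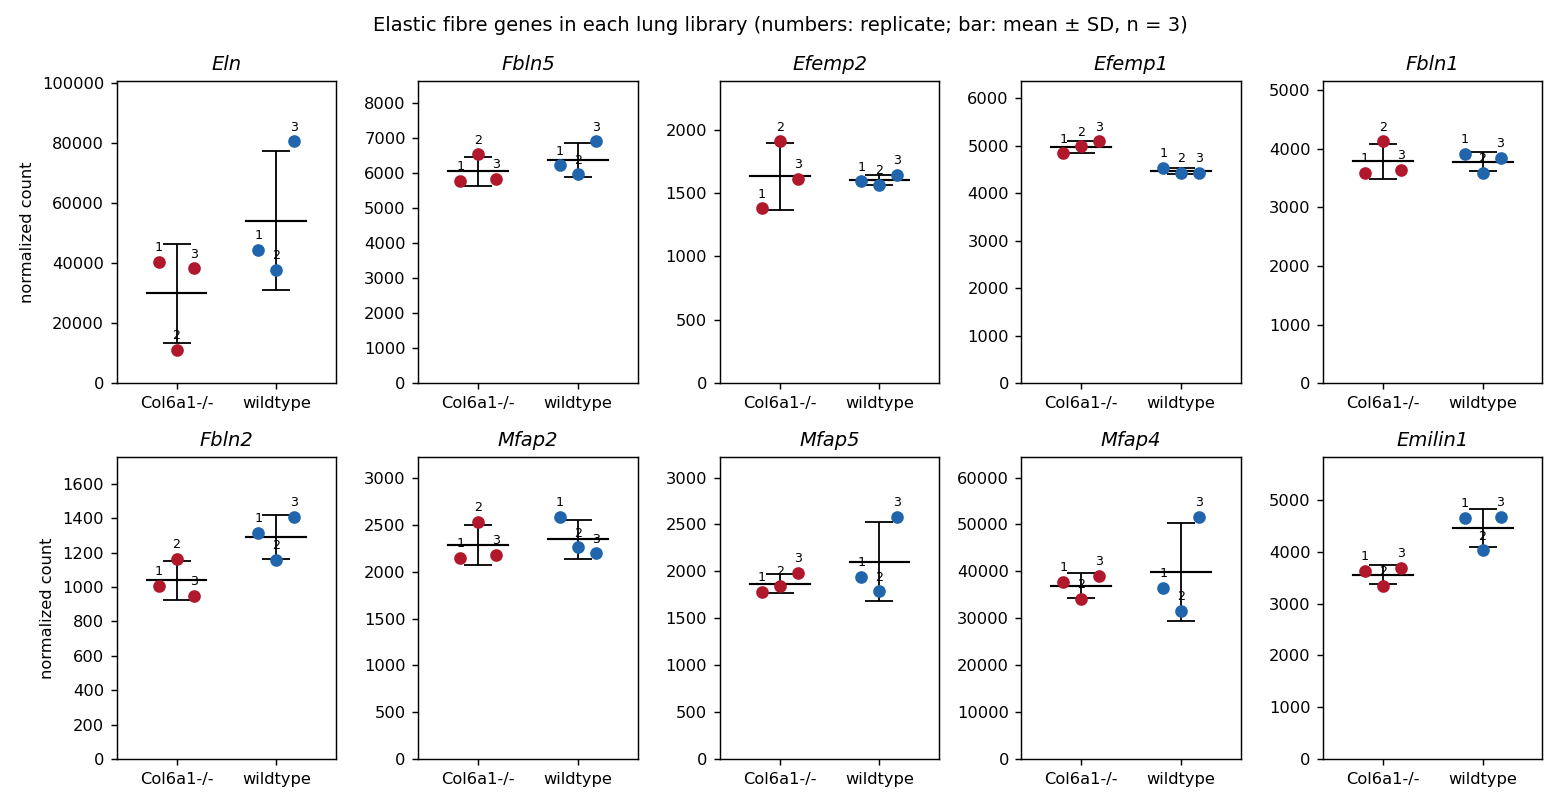
Normalized count (vertical axes, each from 0) of the 10 genes in each library, Col6a1-/- in red on the left and wildtype in blue on the right, with the replicate number over each point and a bar for the mean ± SD of 3 libraries. Eln spread from 11040 in Col6a1-/- replicate 2 to 80551 in wildtype replicate 3, and the points of the genotypes are apart for Emilin1 and Efemp1 alone.

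Per kilobase of merged exons the members spanned a wide range of levels. Mfap4 was highest, at 19237 ± 1347 normalized counts per kilobase in Col6a1-/- lungs, against 20749 ± 5415 in wildtype lungs (SD, n = 3 each). Eln came second by its mean, at 3695 ± 2024 in Col6a1-/- and 6692 ± 2850 in wildtype lungs. Efemp1 followed at 2440 ± 62.3 in Col6a1-/- and 2192 ± 30.1 in wildtype lungs, and Mfap2 at 1888 ± 176 in Col6a1-/- and 1939 ± 171 in wildtype lungs. In Col6a1-/- replicate 2, Eln stood at 1363 per kilobase, below both Efemp1 at 2447 and Mfap2 at 2090, while in the other 5 libraries it lay above them at 4647 to 9947. Fbln5, Emilin1 and Fbln1 came next, at 874 ± 60.7, 721 ± 36.8 and 866 ± 67.8 per kilobase in Col6a1-/- lungs and 919 ± 70.2, 903 ± 74.6 and 865 ± 38.4 in wildtype lungs. These 3 neighbours overlapped within their spread in wildtype lungs, and Emilin1 lay below the other two in every Col6a1-/- library. The lowest were Mfap5 at 521 ± 28.3 in Col6a1-/- and 585 ± 117 in wildtype lungs, Efemp2 at 430 ± 69.9 in Col6a1-/- and 422 ± 10.3 in wildtype lungs, and Fbln2 at 163 ± 17.6 in Col6a1-/- and 203 ± 20.0 in wildtype lungs.

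Eln (ENSMUSG00000029675.12, chromosome 5, 134702593 to 134747323, minus strand, GRCm38), which encodes the elastic core itself, had 40468, 11040 and 38253 normalized counts in the Col6a1-/- pools, against 44389, 37631 and 80551 in the wildtype pools. Col6a1-/- replicate 2 was far below the other 5 libraries and wildtype replicate 3 far above them, while the remaining 4 libraries lay together and overlapped between genotypes. The means were 29920 ± 16388 in Col6a1-/- lungs, against 54190 ± 23078 in wildtype lungs (SD, n = 3 each). The log2 fold change was -0.99 (SE 0.44, 95% interval -1.97 to -0.01) with a limma adjusted p of 0.24. This SE and interval use limma's moderated variance, which draws the wide spread of Eln toward that of other genes. They therefore understate the spread of Eln between pools. With robust moderation, which draws outlying genes less, the limma adjusted p was 0.472. The log2 fold change was -0.38 without Col6a1-/- replicate 2 and -0.67 without wildtype replicate 3, with limma adjusted p of 0.40 and 0.38. In the authors' deposited table the log2 fold change of Eln was smaller, at -0.22 with an adjusted p of 0.412. On recovered reads, edgeR gave -0.86 with an adjusted p of 0.269, and DESeq2 gave -0.86 with an adjusted p of 0.411. For every member and for Col6a1 (-0.92, against -1.02) the deposited fold change was nearer 0 than that of DESeq2 on recovered reads. How the deposited fold changes were estimated is not stated in the sources used here, so these sizes may not be comparable.

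Eln spread widely within a genotype. Its standard deviation around the genotype means was 0.85 on the log2 scale, and 16 of 9201 tested genes with a mean of at least 500 normalized counts had a larger one, where the median was 0.12. Among the other members this standard deviation ran from 0.03 for Efemp1 to 0.27 for Mfap4. Eln made up 15.4% of the members' normalized counts in Col6a1-/- replicate 2, against 37.4% to 50.4% in the other 5 libraries. The other 9 members together took 0.203%, 0.195% and 0.213% of the reads in the Col6a1-/- pools, against 0.203%, 0.183% and 0.254% in the wildtype pools, so the low value of Col6a1-/- replicate 2 was not shared by their sum.

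**Figure D2:**
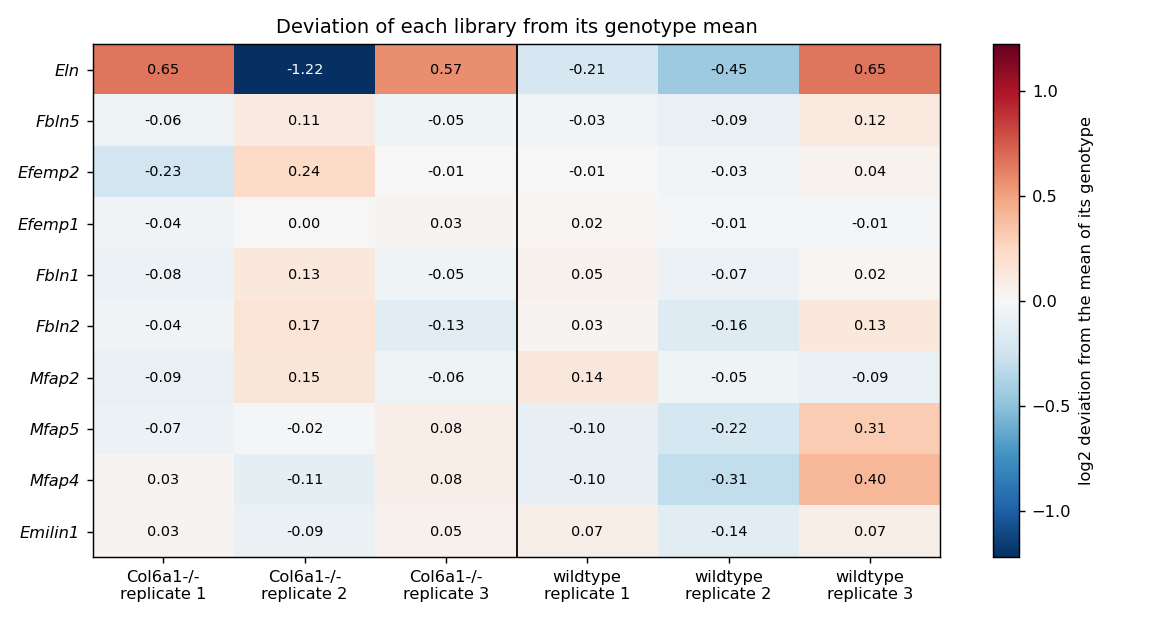
Deviation of each library (columns) from the mean of its genotype, on the log2 scale, for the 10 genes (rows), with Col6a1-/- left of the line, wildtype right of it and the value written in each cell. Eln was at -1.22 in Col6a1-/- replicate 2 and 0.65 in wildtype replicate 3, where Mfap4 and Mfap5 were at 0.40 and 0.31.

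Other measures also set these 2 libraries apart. Col6a1-/- replicate 2 was the pool with a male share of 100% and 28.4 normalized counts of Xist, against 10486 to 16430 in the other 5 libraries. Col6a1-/- replicate 3 and wildtype replicate 3 had close male shares, and their normalized counts of Eln were 38253 in Col6a1-/- replicate 3 and 80551 in wildtype replicate 3. The 6 fat markers, Adipoq among them, all had higher estimates in Col6a1-/- lungs. They summed to 7321, 11936 and 8284 normalized counts in the Col6a1-/- pools, against 6070, 3917 and 2277 in the wildtype pools, highest where Eln was lowest and lowest where Eln was highest. The 6 mesothelial markers, all with higher estimates, likewise had their highest sum in Col6a1-/- replicate 2 (range 12242 to 14642 in Col6a1-/- libraries) and their lowest in wildtype replicate 3 (range 11479 to 13775 in wildtype libraries). The same order held for the sums of 3 more lists, in which abundant markers weigh most. The 6 cardiac muscle markers, all with higher estimates, summed to 17802, 19570 and 18599 in the Col6a1-/- pools, against 16803, 14906 and 12482 in the wildtype pools. The 8 alveolar fibroblast markers, 3 higher and 5 lower, summed to 182772 in Col6a1-/- replicate 2 and 156181 in wildtype replicate 3, with the other 4 libraries between them. The 6 alveolar type 1 markers, 3 higher and 3 lower, summed to 150751 in Col6a1-/- replicate 2 and 136023 in wildtype replicate 3, again the extremes of the 6 libraries. With markers centred and weighted equally on the log2 scale, cardiac muscle was highest in Col6a1-/- replicate 3 (0.236, against 0.224 in Col6a1-/- replicate 2). Alveolar fibroblast was then lowest in Col6a1-/- replicate 3 (-0.0489, against -0.0484 in wildtype replicate 3). Its markers differed: Inmt had 66554 in Col6a1-/- replicate 2 and 37911 in wildtype replicate 3, and Limch1 had 30391 and 37630. None of the markers in these 5 lists was at 0 in any library. Mitochondrial genes took 1.88% to 2.29% of the normalized counts in Col6a1-/- libraries, against 1.99% in wildtype replicate 3 and 1.18% and 1.09% in wildtype replicates 1 and 2. For the alveolar myofibroblast list the sums of 6 markers were 20944, 16472 and 18622 in the Col6a1-/- pools, against 19599, 20067 and 21832 in the wildtype pools, with 3 of 6 estimates higher and 3 lower. The 7 smooth muscle markers, 1 higher and 6 lower, summed to 34134 to 35877 in Col6a1-/- and 32644 to 43251 in wildtype libraries. Eln had a log2 fold change of -0.72 when the male share entered the fit as a covariate, with a limma adjusted p of 0.813. The male share was lower in wildtype replicates 1 and 2 than in every Col6a1-/- pool, so sex and genotype cannot be fully told apart here. The parts of sex and of tissue composition in the values of Eln were not tested.

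The genes whose pattern over the 6 libraries was most like that of Eln, among 9191 other genes with a mean of at least 500 normalized counts, were Pmepa1, Adamts17, Ms4a1, Pdk4 and Cmtm6, with Pearson's r of 0.99, 0.99, 0.99, 0.99 and 0.98 on the log2 scale. In all, 24 genes had an r over 0.95 with Eln, over 6 libraries that include its 2 extreme values. Adamts17, a secreted metalloprotease, had 1017, 344 and 829 normalized counts in the Col6a1-/- pools, against 955, 867 and 1780 in the wildtype pools. Picked for its likeness to Eln, it was lowest in Col6a1-/- replicate 2 and highest in wildtype replicate 3. Its log2 fold change was -0.78 with a limma adjusted p of 0.263.

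The fibulins closest to fibre assembly showed no difference past their spread. Fbln5 (ENSMUSG00000021186.9, chromosome 12, 101746565 to 101819055, minus strand) encodes fibulin-5, which binds both elastin and cells and is needed for elastic fibres in mouse lung and skin. It had 5771, 6525 and 5830 normalized counts in the Col6a1-/- pools, against 6209, 5955 and 6893 in the wildtype pools. The genotypes overlapped, and the log2 fold change was -0.07 (95% interval -0.28 to 0.13) with a limma adjusted p of 0.688. Efemp2 (ENSMUSG00000024909.15, chromosome 19, 5473954 to 5482517, plus strand) encodes fibulin-4, which binds lysyl oxidase and elastin. Its counts were 1378, 1906 and 1608 in the Col6a1-/- pools, against 1591, 1567 and 1643 in the wildtype pools. The wildtype libraries lay within the range of the Col6a1-/- libraries, which spread 1.38-fold, and the log2 fold change was 0.01 (95% interval -0.24 to 0.27) with a limma adjusted p of 0.959.

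Efemp1 (ENSMUSG00000020467.15, chromosome 11, 28853204 to 28926743, plus strand), which encodes fibulin-3, was the only member whose 3 Col6a1-/- libraries all lay above the wildtype libraries. It had 4837, 4985 and 5090 normalized counts in the Col6a1-/- pools, against 4535, 4433 and 4425 in the wildtype pools. The Col6a1-/- mean was 111% of the wildtype mean, and 10.7% of all tested genes were higher without overlap. The log2 fold change was 0.15 (SE 0.08, 95% interval -0.02 to 0.33) and did not pass, with a limma adjusted p of 0.287. Fold changes over all genes went with transcript length and GC content (Spearman's rho of -0.354 and -0.350 across 12730 genes with a mean of at least 100, which are not independent replicates). The longest Efemp1 transcript has a GC content of 44.9%, the lowest of the 10 members. With the trend on length and GC removed from each library, the estimate of Efemp1 was -0.02 with a limma adjusted p of 0.913. This removal took out length and GC together, and the part of either in the value of Efemp1 was not tested.

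The 250 bases before the RefSeq start are shown for Efemp1, the one member higher in all Col6a1-/- libraries, and for Fbln5, as an example of the 4 fibulin genes whose libraries overlapped between genotypes. RefSeq windows on GRCm38.p6 matched 7 of the 10 members; Eln, Mfap4 and Mfap5 were not matched. Capitals mark matches on either strand to a few promoter motifs. A GC box is written as GGGCGG, which reads CCGCCC on the opposite strand. The CCAAT box is named by its own letters. The TATA box was searched as the letters TATAAA. An AP-1 type site was searched as the letters TGANTCA. No match overlapped another in the windows shown.
Efemp1, chr11:28852955-28853204, plus strand: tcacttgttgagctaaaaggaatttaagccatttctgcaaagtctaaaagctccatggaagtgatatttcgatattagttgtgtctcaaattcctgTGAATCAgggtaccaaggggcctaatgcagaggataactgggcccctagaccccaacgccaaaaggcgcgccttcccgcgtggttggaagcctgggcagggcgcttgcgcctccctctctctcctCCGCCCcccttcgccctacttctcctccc
Fbln5, chr12:101819120-101819369, minus strand: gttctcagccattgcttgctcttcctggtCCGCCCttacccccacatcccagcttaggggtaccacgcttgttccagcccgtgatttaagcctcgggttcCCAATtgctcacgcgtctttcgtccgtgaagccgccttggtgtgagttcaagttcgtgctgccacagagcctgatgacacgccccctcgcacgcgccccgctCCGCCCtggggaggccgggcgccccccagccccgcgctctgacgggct
The Efemp1 window held 1 GC box and 1 AP-1 type match, and the Fbln5 window printed above held 2 GC boxes and 1 CCAAT match. RefSeq gives a second start for Fbln5, and its window (chr12:101818485-101818734, not printed) held 0 matches to any of these motifs. Of all 32851 windows of this length, 32.7% held a GC box, 33.8% CCAAT, 12.4% TATAAA and 6.75% an AP-1 type match. These matches are letters in a window and not measured sites.

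Fbln1 and Fbln2, a pair of related fibulins, had unlike estimates. Fbln1 (ENSMUSG00000006369.14, chromosome 15, 85205949 to 85286535, plus strand), which encodes a fibulin that binds fibronectin and sits in elastic fibres and basement membranes, had 3579, 4121 and 3643 normalized counts in the Col6a1-/- pools, against 3909, 3589 and 3834 in the wildtype pools. The genotypes overlapped fully, with a 95% interval for the log2 fold change of -0.20 to 0.20 and a limma adjusted p of 0.998. Fbln2 (ENSMUSG00000064080.12, chromosome 6, 91212455 to 91272540, plus strand), which encodes a fibulin of vessel walls and basement membranes, had 1006, 1163 and 946 in the Col6a1-/- pools, against 1316, 1155 and 1406 in the wildtype pools. The genotypes met only at Col6a1-/- replicate 2 and wildtype replicate 2. The Col6a1-/- mean was 80.4% of wildtype, a log2 fold change of -0.32 (SE 0.11, 95% interval -0.56 to -0.07), and did not pass, with a limma adjusted p of 0.166. With the trend on length and GC removed, it was -0.15 with a limma adjusted p of 0.464.

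Ratios between members within a library do not depend on how libraries were scaled, and 5 of them were compared. The ratio of Fbln1 to Fbln2 was 3.56, 3.54 and 3.85 in the Col6a1-/- pools, against 2.97, 3.11 and 2.73 in the wildtype pools. Every Col6a1-/- library lay above every wildtype library, which gave an exact two-sided permutation p of 0.1, the smallest that 3 libraries against 3 allow, and 0.5 after Benjamini-Hochberg adjustment over the 5 ratios. The ratio of Mfap2 to Mfap5 was 0.853 in wildtype replicate 3 and 1.10 to 1.37 in the other 5 libraries. The ratio of Eln to Fbln5 was 1.69 in Col6a1-/- replicate 2 and 11.7 in wildtype replicate 3, against 6.32 to 7.15 in the remaining 4 libraries. The ratios of Efemp1 to Efemp2 and of Fbln5 to Efemp2 overlapped between genotypes, with exact permutation p of 0.4 each.

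**Figure D3:**
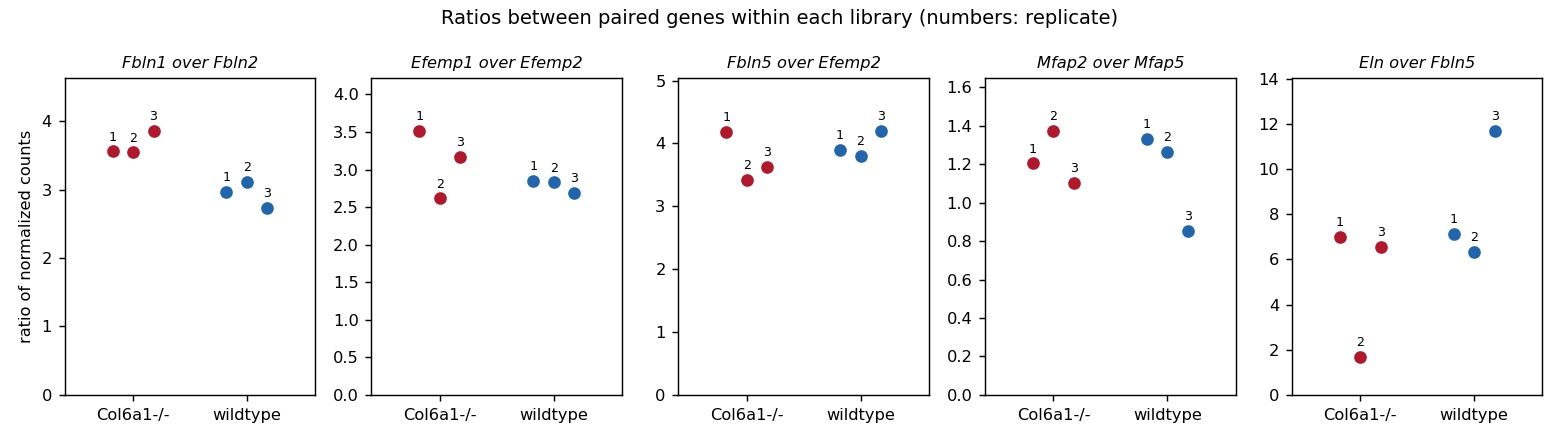
Ratio of normalized counts within each library (vertical axes, each from 0) for 5 pairs of members, Col6a1-/- in red on the left and wildtype in blue on the right, with the replicate number over each point. The ratio of Fbln1 to Fbln2 was 3.54 to 3.85 in Col6a1-/- and 2.73 to 3.11 in wildtype libraries, while Eln over Fbln5 was far from the rest in 1 library of each genotype.

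The microfibril-associated genes did not differ past their spread. Mfap2 (ENSMUSG00000060572.17, chromosome 4, 141010418 to 141015984, plus strand) encodes a small glycoprotein that binds fibrillin. It had 2147, 2531 and 2181 normalized counts in the Col6a1-/- pools, against 2585, 2261 and 2198 in the wildtype pools, overlapping, with a log2 fold change of -0.04 (95% interval -0.26 to 0.18) and a limma adjusted p of 0.856. Its relative Mfap5 (ENSMUSG00000030116.14, chromosome 6, 122505845 to 122529290, plus strand) had 1782, 1845 and 1980 in the Col6a1-/- pools, against 1939, 1786 and 2577 in the wildtype pools. Wildtype replicate 3 stood above the other 5, and the log2 fold change was -0.15 with all libraries and 0.0047 without it, with limma adjusted p of 0.526 and 0.981.

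Mfap4 (ENSMUSG00000042436.12, chromosome 11, 61485431 to 61488900, plus strand), which encodes a fibrinogen-related protein that binds elastin and fibrillin, had 37742, 34087 and 39091 normalized counts in the Col6a1-/- pools, against 36507, 31578 and 51554 in the wildtype pools. As for Eln and Mfap5, wildtype replicate 3 was the highest library. The log2 fold change was -0.08 (95% interval -0.44 to 0.28) with a limma adjusted p of 0.81, and it was 0.12 without wildtype replicate 3, with a limma adjusted p of 0.558.

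Emilin1 (ENSMUSG00000029163.9, chromosome 5, 30913402 to 30921277, plus strand) encodes a glycoprotein at the interface of elastin and microfibrils, which in mice also limits the processing of the TGF-beta precursor. It had 3634, 3350 and 3689 normalized counts in the Col6a1-/- pools, against 4665, 4031 and 4672 in the wildtype pools. Every Col6a1-/- library was below every wildtype library, as was so for 14.2% of all tested genes. Marker sums of some other cell types separated the genotypes as well, with abundant markers weighing most. The 6 endothelial markers, all with lower estimates and 1 of them called, summed to 116871 to 123929 normalized counts in Col6a1-/- libraries, against 141645 to 153604 in wildtype libraries. The 6 pericyte markers, 1 higher and 5 lower, summed to 38747 to 40912 in Col6a1-/- libraries, against 42462 to 43949 in wildtype libraries. The 5 red cell markers, all with higher estimates, summed to 62062 to 102287 in Col6a1-/- libraries, against 41736 to 47783 in wildtype libraries. With markers centred and weighted equally on the log2 scale, the endothelial and red cell lists stayed apart. The pericyte list then overlapped, at 0.029 in Col6a1-/- replicate 2 and -0.032 in wildtype replicate 3. No marker of these 3 lists was at 0, and the part of cell composition in the value of Emilin1 and of the other members was not tested. The means were 3558 ± 182 in Col6a1-/- lungs, against 4456 ± 368 in wildtype lungs (SD, n = 3 each), 79.8% of wildtype. The log2 fold change of -0.32 (SE 0.09, 95% interval -0.53 to -0.12) had the smallest p among the members and did not pass limma, with an adjusted p of 0.119. In the authors' deposited table Emilin1 was the only member with an adjusted p under 0.05, at 0.0482 with a log2 fold change of -0.30, where 5.05% of the 14679 genes with an adjusted p in that table were called. DESeq2 on the recovered reads of the limma-tested genes gave an adjusted p of 0.051. The log2 fold change of Emilin1 was -0.39 to -0.28 when each library was left out, with limma adjusted p of 0.094 to 0.406. It was -0.32 with the male share as a covariate and -0.23 with the trend on length and GC removed, with limma adjusted p of 0.666 and 0.28.

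**Figure D4:**
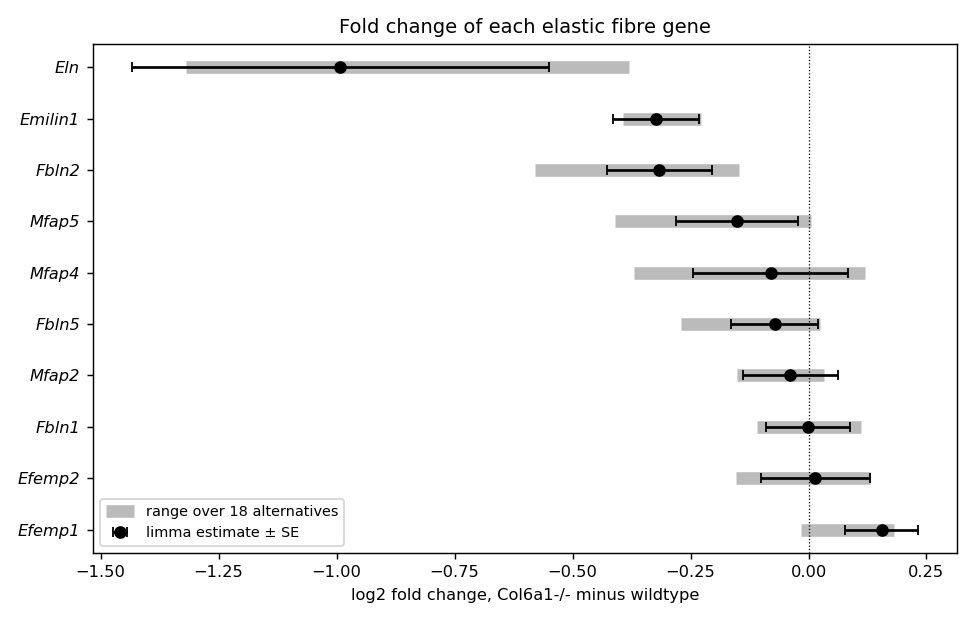
Log2 fold change of each member, Col6a1-/- minus wildtype (horizontal axis), with the limma estimate and its SE in black and the range over 18 alternative settings in grey. Eln, Emilin1 and Fbln2 stayed below 0 under all 18 settings, and the grey bars of the other 7 members cross 0.

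The genes most like Emilin1 by the same measure were Tubgcp2, Syt15, Maged1, Mmp3 and Plekhb2, with Pearson's r of 0.99, 0.98, 0.97, 0.97 and 0.97 over the 6 libraries, among 22 genes with an r over 0.95. Mmp3, a matrix metalloprotease, had 666, 616 and 732 normalized counts in the Col6a1-/- pools, against 905, 768 and 853 in the wildtype pools, with a limma adjusted p of 0.148. It was picked for its likeness to Emilin1 over these same libraries, so its lack of overlap is not a separate result.

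Members whose exons overlap a gene on the opposite strand could share reads with it, since the strand setting of the counting is not stated in the sources used here. Efemp2 overlaps Mus81 by 173 bases and Mfap4 overlaps Mapk7 by 89 bases of exon. Mus81 had 701 to 757 normalized counts in Col6a1-/- and 604 to 785 in wildtype libraries, and Mapk7 had 1081 to 1189 in Col6a1-/- and 1133 to 1248 in wildtype libraries. Eln overlaps the antisense gene Gm30003 by 267 of 8098 bases, and Gm30003 was not analysed here.

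Of 39 other genes of the pathway, 37 were tested and none passed limma in either direction, while 8 lay at an unadjusted p under 0.05, where 20.3% of all tested genes did. An adjusted p under 0.05 in the authors' deposited table was found for 4, where 5.05% of its genes with an adjusted p had one. Estimates were lower for 30 and higher for 7, where 48.3% of all tested genes had lower ones, with a median log2 fold change of -0.16 beside 0.01 over all tested genes. Separation of the genotypes without overlap was seen for 11 of the 37, 10 lower and 1 higher, where it was seen for 14.2% and 10.7% of all tested genes, lower and higher. By role, all 4 latent TGF-beta binding genes and all 5 lysyl oxidase genes had lower estimates, with medians of -0.21 and -0.25, and the elastin receptor complex (Glb1, Neu1 and Ctsa) had a median of -0.05. All 4 elastase inhibitors and all 3 tested genes of the other emilin family were lower as well, with medians of -0.09 and -0.16. The 3 other fibulins, 1 lower and 2 higher, had a median of 0.16. Elane, neutrophil elastase, and Emilin3 were under the filter on low counts.

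The 6 with the smallest p were Atp7a, Loxl4, Fbn1, Ltbp2, Ltbp1 and Itgb3, all without overlap and lower. Atp7a encodes the copper transporter that supplies lysyl oxidases and lies on chromosome X. It had 1061, 857 and 689 normalized counts in the Col6a1-/- pools, against 1300, 1334 and 1501 in the wildtype pools. Its log2 fold change was -0.68 (SE 0.14) with a limma adjusted p of 0.0869, and it passed limma when no filter on low counts was used (adjusted p 0.0496), with the trend on length and GC removed (0.0449) and without wildtype replicate 3 (0.0399). The adjusted p of Atp7a was 0.00194 in the authors' deposited table. With DESeq2 on the recovered reads, which called 731 of all tested genes, it was 0.00183. With the male share as a covariate it was -0.94 with a limma adjusted p of 0.548. With the same covariate the log2 fold change of Itgb3, an integrin subunit, was 0.0009, against -0.37 without it. Fbn1, the fibrillin of the microfibril scaffold, had 9699, 6521 and 8544 normalized counts in the Col6a1-/- pools, against 11457, 10370 and 13880 in the wildtype pools. Its lowest and highest libraries were those of Eln, over a narrower range. Its log2 fold change was -0.54 with a limma adjusted p of 0.118, and in the authors' deposited table its adjusted p was 0.0192. After removal of the trend on length and GC, the limma estimate of Fbn1 was -0.23 with an adjusted p of 0.46. Loxl4, Ltbp2, Ltbp1 and Itgb3 stood at 62.2%, 78.5%, 84.6% and 78.1% of wildtype, with limma adjusted p of 0.117, 0.12, 0.158 and 0.178. With that trend removed, their log2 fold changes were -0.60, -0.12, -0.015 and -0.18, against -0.72, -0.35, -0.24 and -0.37 before, and their limma adjusted p ran from 0.152 to 0.906.

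**Figure D5:**
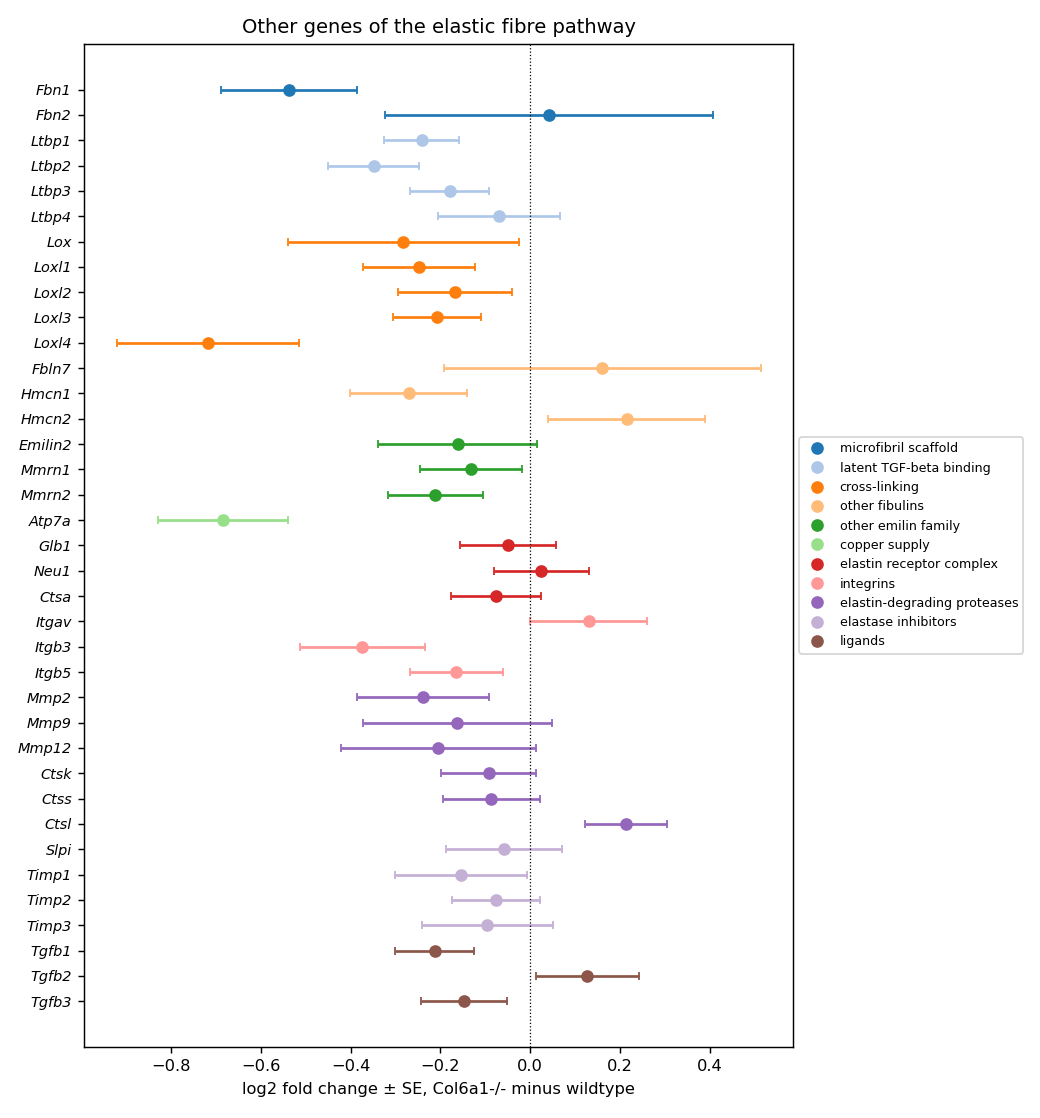
Log2 fold change with its SE, Col6a1-/- minus wildtype (horizontal axis), of the 37 tested genes of the elastic fibre pathway outside the 10 members, coloured by role. Estimates lie left of 0 for 30 genes, with Atp7a, Loxl4 and Fbn1 at -0.68, -0.72 and -0.54.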

How the data were processed

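For each gene the authors deposited a signal value in each of the 6 libraries, a count normalized with DESeq2 per the file name, which divides reads by 1 size factor per library. Tools named in the submitters' processing notes, without role or order, were STAR 2.5.2b, Trimmomatic 0.36, featureCounts, Subread 1.5.0p3, DESeq2 1.16.1 and R 3.4.1, and the build was GRCm38.p5. The authors' deposited table gave, per its headers, a mean and a test statistic (scores) beside log2 fold changes, p-values and adjusted p-values. Whole reads were recovered for 100% of values (tolerance 1e-06 around a whole multiple) and were used for depth and count models only. The step of Col6a1-/- replicate 3, with a size factor of 1.0003, is near 1, and 100% of its values were whole multiples of that step within the same tolerance. In the header, wildtype replicate 2 has New added to its name, with no explanation in the sources used here.

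The filter kept genes at 10 or more normalized counts in 3 or more libraries. The test was limma-trend with no covariates, run in R 4.3.3 with limma 3.58.1, on the log2 of normalized count + 1. Fold changes are on that scale, which understates those of low genes. Errors beside means are SDs over 3 pools, and intervals are limma's. The alternatives were other pseudocounts (0.5 and 5), filters, scalings and tools (edgeR 4.0.16, DESeq2 1.42.0), covariates and each library left out. Positions and lengths came from GENCODE M21 on GRCm38, and 95.3% of rows matched it by symbol. Trends on the longest transcript's length and GC were fitted as natural splines, each with 5 degrees of freedom. The fit was tested on simulated data.

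The members, the lists and the tests were chosen with earlier results of these data known. Named were all members, Col6a1, the 6 other pathway genes with the smallest p, and the 5 genes most like Eln and most like the member with the smallest p. The 3 pools of a genotype came from different animals. The replicate numbers were not taken to pair the libraries.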

Additional observations from a re-analysis of the deposited data

How the results depend on the processing

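Under all 18 alternatives, no member was called. Of the 180 member results under the alternatives, 164 kept their sign and 16 turned it. The members that turned had main estimates from -0.15 (Mfap5) to 0.15 (Efemp1). After removal of the trend on length and GC, Fbln5 turned to 0.025, Efemp1 to -0.015 and Fbln1 to 0.11. Efemp2 turned to -0.024 with median centring and -0.15 with the male share as a covariate, and Fbln1 to 0.0011 with DESeq2. With each library left out, Efemp2 ran from -0.10 to 0.13, Fbln1 from -0.064 to 0.038, Mfap2 from -0.11 to 0.032, Mfap5 from -0.26 to 0.0047 and Mfap4 from -0.23 to 0.12. The cause of these turns was not tested. Col6a1 kept its direction and was lost with the male share as a covariate, at -1.24 with an adjusted p of 0.117; with each library left out it ran from -1.08 to -0.94, with adjusted p of 0.00369 to 0.123. It was lost without wildtype replicate 1 (adjusted p 0.066) and without Col6a1-/- replicate 3 (0.123).

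Among the other pathway genes, 1 was called with no filter, 1 with the trend removed and 4 with DESeq2, and 0 to 1 with each library left out. Over all tested genes, limma called 11, against 93 with no filter, 7 with the filter at 50, 26 with median centring, 30 with robust moderation, 731 with DESeq2, 0 with the male share as a covariate (1306 genes at an unadjusted p under 0.05), 67 with the trend removed, and 0 to 1383 with each library left out. None was called without wildtype replicate 1 or Col6a1-/- replicate 3 (1902 and 1979 at an unadjusted p under 0.05), and 1383 without wildtype replicate 3.

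With the replicate number as a block 7 genes and no member were called, and the log2 fold change of Eln stayed at -0.99 with an adjusted p of 0.0993. The labels number the animals but do not pair them. The correlations of same-numbered libraries' deviations were -0.136, 0.106 and -0.00588, against -0.152 to 0.200 for libraries with different numbers. Deviations from a mean of 3 libraries are tied to each other, so these correlations cannot show whether same-numbered libraries shared a batch. With 3 pools per genotype, an effect on Eln of the size seen is not resolved from the spread between pools.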
